A study of Homo sapiens with 6 samples.

Results

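The SLC25 mitochondrial carrier family was examined in nascent RNA of SH-SY5Y, a human neuroblastoma cell line. Its members were taken as every protein-coding gene of the count tables whose symbol is SLC25A followed by a number, which gave 48 genes on 19 chromosomes out of 67051 listed gene identifiers. PRO-seq, a nuclear run-on assay that sequences RNA made by engaged polymerases, had been applied to 3 groups of 2 libraries: cells given 0.1 mM MPP+ over 0.5 h, cells given 0.1 mM MPP+ over 24 h, and untreated cells. All of them are the same line, grown in the same high-glucose medium, and no transgene or deletion is named. The title of the study concerns mitochondrial transcription under MPP+, and the members are nuclear genes, most of whose products sit in mitochondria.

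SLC25 proteins are small membrane proteins, most of which carry metabolites, nucleotides, cofactors and ions across the inner mitochondrial membrane. The best known members exchange ADP for ATP or import phosphate, and others link the cytosol to the citric acid cycle, to amino acid breakdown and to the making of iron-sulphur clusters and haem. They are made in the cytosol, in most cases without a cleaved targeting sequence, and most reach the inner membrane through a chaperone route of their own. MPP+ is the active metabolite of the toxin MPTP, enters dopaminergic cells through the dopamine transporter, and blocks respiratory complex I.

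The libraries held 11707612 and 8714604 assigned counts at 0.5 h of MPP+, 8573601 and 5983066 at 24 h, and 7044839 and 8381006 in untreated cells. The 2 libraries of a group differed by more than counting error, with a chi-square per degree of freedom between 4.13 and 9.06. Of 12 adrenergic neuroblastoma markers, 11 were above 1 CPM, a count scaled to library depth, in every library, and TH, the rate-limiting enzyme of dopamine synthesis, was the exception at 0.23 to 1.62 CPM. The summed level of these 12 markers was 3450 to 4021 CPM at 0.5 h, 3066 to 3848 CPM at 24 h and 3467 to 4156 CPM in untreated cells. Summed markers of other cell types were lower, with at most 199 CPM for 4 epithelial genes, of which KRT5 was at 0, 155 CPM for 5 fibroblast genes, 32.0 CPM for 4 glial genes, 26.9 CPM for 3 endothelial genes and 5.43 CPM for 4 blood genes. No label states separate cultures for the replicates, so the p-values speak only of variation among these 6 libraries, part or all of which may be technical. In bulk nuclei, fewer cells with a transcript and less nascent RNA per cell cannot be told apart.

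The carriers were transcribed at a steady share of the whole. The 48 members together took 0.155% and 0.167% of the assigned counts at 0.5 h, 0.156% and 0.164% at 24 h, and 0.161% and 0.165% in untreated cells. After TMM scaling, a correction for differences in composition between libraries, their summed level was 1592 and 1672 CPM at 0.5 h, 1578 and 1588 CPM at 24 h, and 1635 and 1615 CPM in untreated cells. The 24 h libraries were the 2 lowest of the 6, the higher of them just under the first 0.5 h library, and the 0.5 h libraries lay on either side of the untreated ones. The ratio of group means was 1.004 for 0.5 h against untreated (exact two-sided permutation p = 1), 0.974 for 24 h against untreated (exact permutation p = 0.33) and 0.970 for 24 h against 0.5 h (exact permutation p = 0.33). With 2 against 2 libraries, 0.33 is the smallest p the design allows.

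No carrier gene passed the test at either exposure. In edgeR's quasi-likelihood test, fitted on 23133 genes and adjusted by Benjamini-Hochberg over all of them with a threshold of 0.05, 43 members passed the filter on low counts. Of these, 0 were called at 0.5 h against untreated, where 0.0735% of all tested genes were called. At 24 h against untreated 0 members were called, with a background of 0.0692%, and at 24 h against 0.5 h 0 members were called, with a background of 0.0%. At an unadjusted p under 0.05, 0 of 43 members were counted at 0.5 h, against 2.46% of all genes. The count was 2 members at 24 h against untreated, SLC25A29 and SLC25A4, against 8.1% of all genes. It was 4 members at 24 h against 0.5 h, SLC25A29, SLC25A34, SLC25A44 and SLC25A27, against 6.42% of all genes. DESeq2 also called 0 members in the 3 comparisons, and at an unadjusted p under 0.05 it counted 1 member, SLC25A29 at 24 h against untreated cells, and 0 in the other comparisons. The authors' deposited tables of differential genes, which list 17 genes for 0.5 h and 24 genes for 24 h, contain 0 members.

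The carriers stayed near the centre of all genes while the mitochondrial genome did not. The median log2 fold change of the 43 tested members was -0.01 at 0.5 h against untreated, beside 0.01 for all tested genes, and individual members lay between -0.45 and 0.42. It was -0.01 at 24 h against untreated, beside 0.00 for all tested genes, with members between -0.56 and 0.48. At 24 h against 0.5 h it was -0.04, beside 0.00 for all tested genes, with members between -0.60 and 0.76. The 33 tested genes encoded by mitochondrial DNA had a median of -2.27 at 0.5 h and -2.11 at 24 h against untreated, and 15 and 14 of them passed the test, all lower. The comparisons of 0.5 h and 24 h with untreated cells share the untreated libraries, and those of 24 h share the 24 h libraries.

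**Figure D1:**
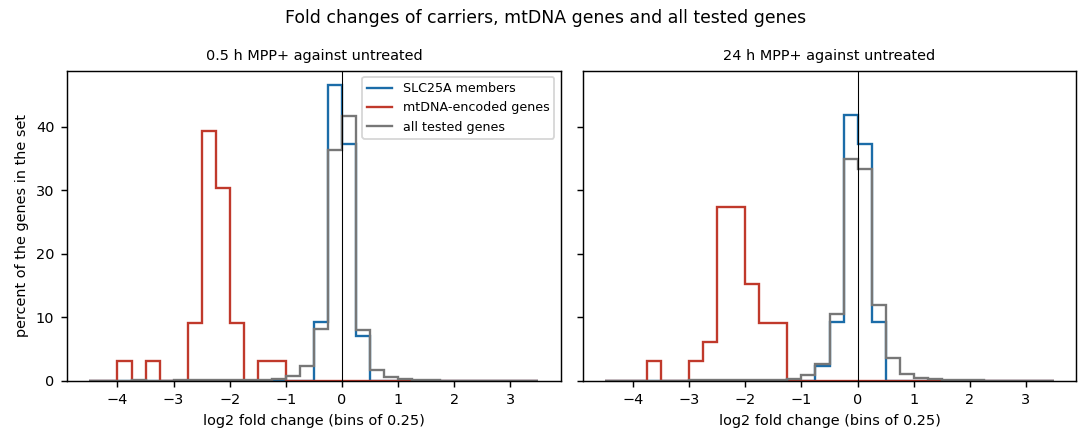
Share of genes, in percent of each set, by log2 fold change in bins of 0.25, for 43 SLC25A members (blue), 33 mtDNA-encoded genes (red) and 23133 tested genes (grey), at 0.5 h of MPP+ against untreated (left) and 24 h against untreated (right). The carriers pile up at 0 together with all genes, and the mtDNA-encoded genes form a separate group around medians of -2.27 and -2.11.

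The precision of single genes limits what a missing call can say. The 95% interval of the log2 fold change lay within 1 log2 unit of 0, a doubling or its inverse, for 37 of 43 members at 0.5 h, 39 at 24 h and 36 at 24 h against 0.5 h. At 24 h against untreated the 4 members whose interval reached past that bound were SLC25A5, SLC25A10, SLC25A11 and SLC25A47. SLC25A10, the dicarboxylate carrier, shares 46.6% of its exon length with AC139530.2, a gene on the same strand with 5247 counts beside its own 140, so how far its low count reflects its transcription cannot be told. Within a bound of 1.5-fold the numbers were 28 at 0.5 h, 26 at 24 h and 26 at 24 h against 0.5 h, so a change of 1.5-fold lay inside the interval of the remaining members.

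**Figure D2:**
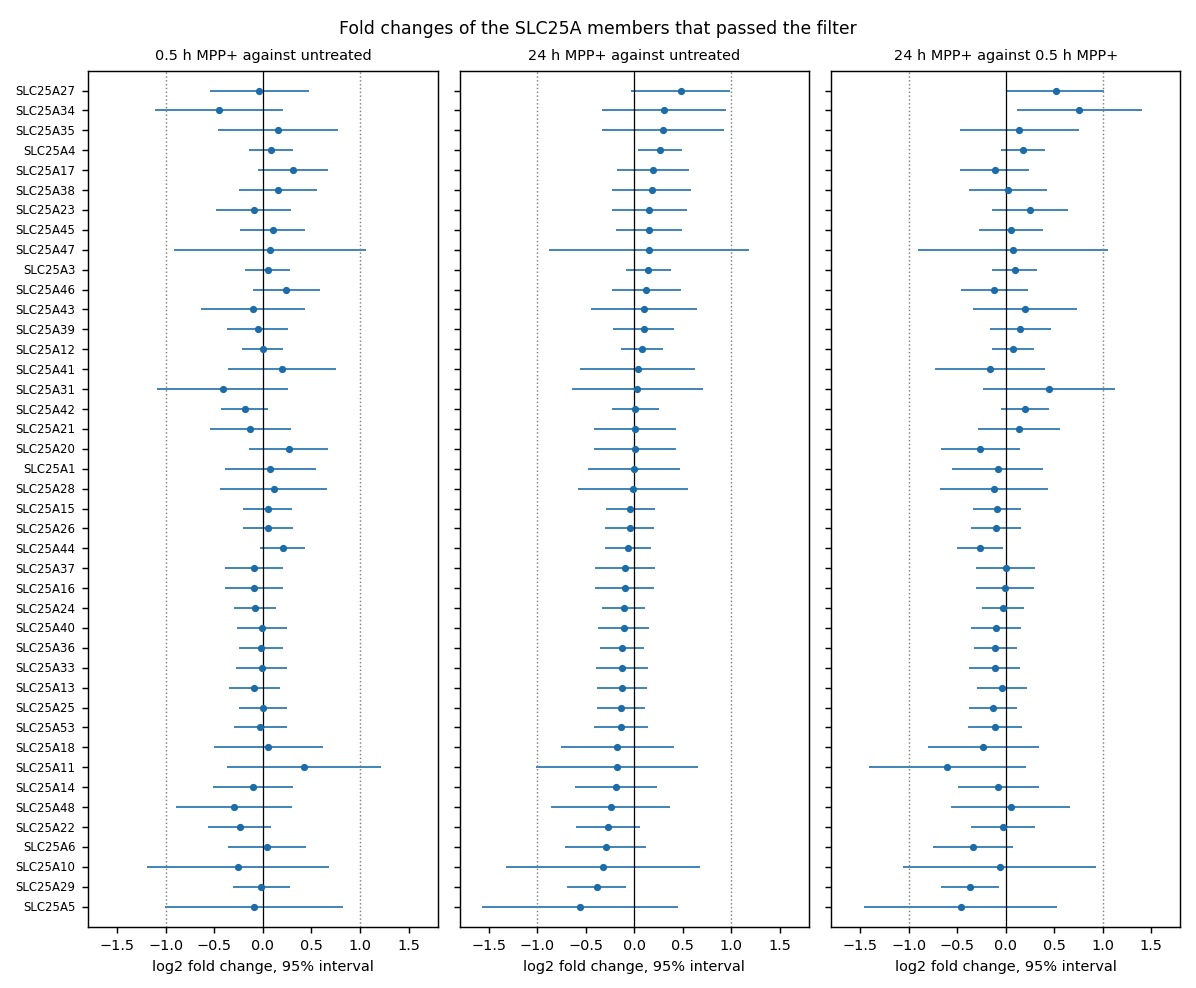
Log2 fold change (points) with its 95% interval (bars) for 42 of the 43 members that passed the filter, ordered by the 24 h value, at 0.5 h against untreated (left), 24 h against untreated (centre) and 24 h against 0.5 h (right). Dotted lines mark 1 log2 unit. Most intervals cross 0, and the widest belong to SLC25A5, SLC25A10, SLC25A47 and SLC25A11.

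Some members had both libraries of one group outside the range of the other. At 0.5 h, 6 of 43 members had both libraries above both untreated ones, beside 12.9% of all genes, namely SLC25A4, SLC25A17, SLC25A20, SLC25A41, SLC25A44 and SLC25A46. Another 5 had both below, beside 14.4%, namely SLC25A22, SLC25A24, SLC25A31, SLC25A34 and SLC25A42. At 24 h against untreated, 5 were above, beside 18.8%, namely SLC25A3, SLC25A4, SLC25A12, SLC25A27 and SLC25A38. The 9 below, beside 18.5%, were SLC25A16, SLC25A22, SLC25A24, SLC25A25, SLC25A29, SLC25A33, SLC25A36, SLC25A40 and SLC25A53. Between 24 h and 0.5 h, 9 were above at 24 h, beside 19.4%, and 9 below, beside 19.0%. These shares were near or under those of all genes.

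The levels of the carriers differed far more between genes than between groups. Per kilobase of merged exon length, the median tested member stood at 6.67 CPM per kb at 0.5 h, 6.4 at 24 h and 6.18 in untreated cells. In untreated cells the lowest tested member was SLC25A48, of the list of other or unassigned substrate, at 1.04 ± 0.30 CPM per kb, and the highest was SLC25A13, the aspartate/glutamate carrier citrin, at 68.7 ± 7.95 CPM per kb (SD, n = 2), a 66.1-fold span. Below SLC25A13 came the ornithine carrier SLC25A15 with 28.8 ± 0.80 and the ADP/ATP carrier SLC25A6, by its X row alone, with 26.8 ± 7.67 CPM per kb. They did not differ beyond the spread of SLC25A6. The next 4, SLC25A26, SLC25A1, SLC25A12 and SLC25A33, lay between 16.4 and 17.3 CPM per kb and did not differ beyond their spread. The order depends on the length chosen, because the feature type that was counted is not given in the sources used here. Per kilobase of gene span, SLC25A13 stood at 1.26 CPM per kb, and the 5 highest were the citrate carrier SLC25A1 (11.2), SLC25A6 (8.81), SLC25A4 (8.31), the glutathione carrier SLC25A39 (4.73) and SLC25A3 (4.47). Only SLC25A6 and SLC25A1 were among the 5 highest by both lengths. SLC25A6 is also listed on Y, with 2824 counts beside 2777 in the X row, so its place by either length may be too low.

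**Figure D3:**
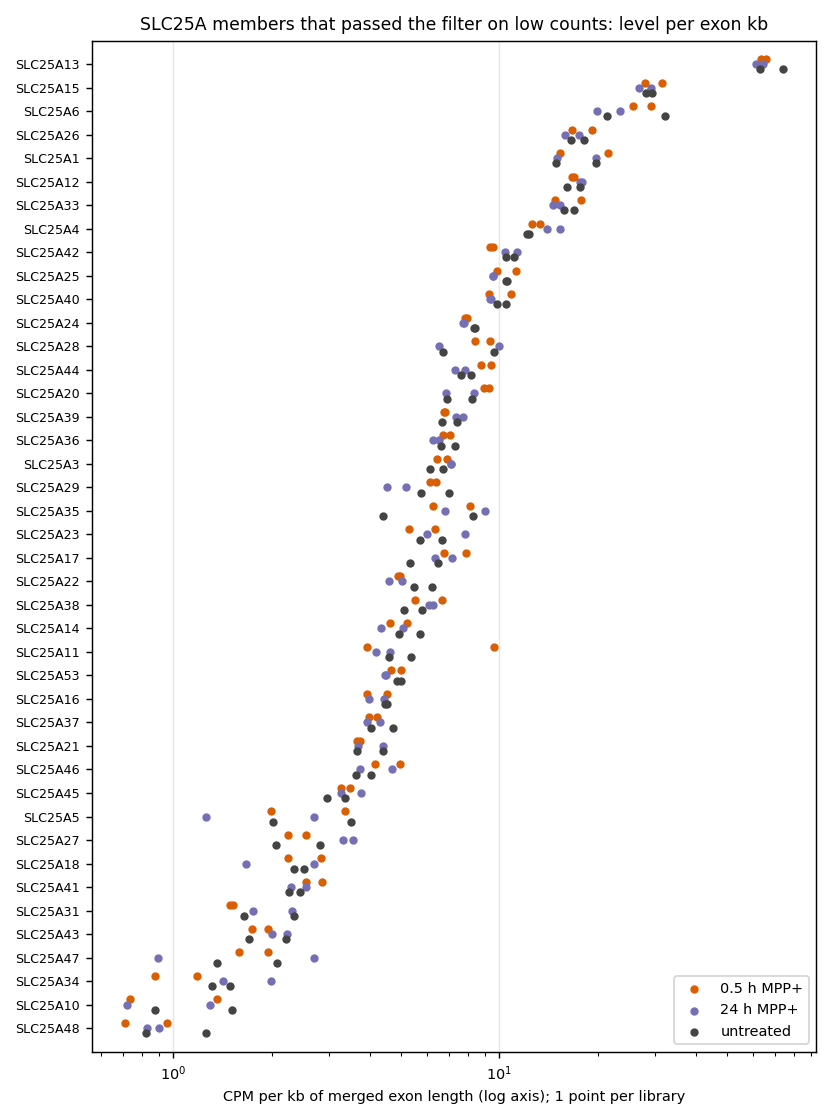
Level of 42 of the 43 tested members in CPM per kb of merged exon length (log axis), 1 point per library, at 0.5 h (orange), 24 h (violet) and in untreated cells (black), ordered by the untreated mean. SLC25A13 stands alone at the top, the points of the 3 groups lie together for most genes, and SLC25A11 has a single 0.5 h library far to the right of its other points. SLC25A6 is drawn from its X row alone.

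The ADP/ATP carriers exchange cytosolic ADP for matrix ATP and are the main route by which mitochondrial ATP reaches the cytosol. SLC25A4, the form typical of heart, muscle and brain, lies at chr4:185143241-185150382 on hg38. It had 61.0 and 64.6 CPM at 0.5 h, 74.3 and 67.8 CPM at 24 h, and 59.7 and 58.9 CPM in untreated cells. The groups did not overlap, with both 24 h libraries highest and the untreated libraries lowest. Its log2 fold change at 24 h against untreated was 0.26 ± 0.10 (SE), with a 95% interval of 0.03 to 0.49, and did not pass the test (edgeR adjusted p = 0.595).

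SLC25A6, the ubiquitous form, lies in the pseudoautosomal region at chrX:1386152-1392724. It had 63.1 and 55.5 CPM at 0.5 h, 50.7 and 43.1 CPM at 24 h, and 69.7 and 46.2 CPM in untreated cells, so that the 2 untreated libraries enclosed both 0.5 h values and the first 24 h value. Its log2 fold change was -0.29 ± 0.18 at 24 h against untreated (edgeR adjusted p = 0.734). Without the first untreated library it was 0.024 (edgeR adjusted p = 0.988). Among libraries of the same replicate number, which the labels do not say are paired, the 24 h library was the lower one in both cases. At 24 h against 0.5 h it was -0.34 ± 0.18 (edgeR adjusted p = 0.781). The tables list the gene a second time on Y, with 2824 counts beside 2777 in the X row used here. Reads of the X and Y sequences cannot be told apart. The levels given for SLC25A6 therefore hold only part of the reads listed under its symbol.

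SLC25A5, the form of dividing cells, had 2.99 and 5.04 CPM at 0.5 h, 1.89 and 4.05 CPM at 24 h, and 3.02 and 5.26 CPM in untreated cells. In all 3 groups the second library was the higher one, and the groups overlapped. The log2 fold change at 24 h against untreated was -0.56 ± 0.45, with an interval of -1.57 to 0.45 (edgeR adjusted p = 0.804). SLC25A5 has processed pseudogenes, and the 43 rows of the tables that carry a pseudogene symbol of the family held 383 counts in all, 21 of them 0 in every library. Whether reads of SLC25A5 were lost to copies was not tested. SLC25A5 also shares 15.1% of its exon length with SLC25A5-AS1, a gene on the opposite strand with 103 counts beside its own 185. Any part of that overlap in its low count was not tested. SLC25A31, the germ-cell form, had 2.81 and 2.75 CPM at 0.5 h, 4.25 and 3.24 CPM at 24 h, and 3.02 and 4.33 CPM in untreated cells, with the 0.5 h libraries lowest.

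At 24 h the order of the 4 ADP/ATP carriers depended on the length used, with SLC25A6 taken from its X row alone. Per kilobase of exon, SLC25A6 and SLC25A4 stood above the other 2 in each group. SLC25A6 stood at 27.4 ± 2.50 CPM per kb at 0.5 h, 21.7 ± 2.49 at 24 h and 26.8 ± 7.67 in untreated cells. SLC25A4 stood at 13 ± 0.53 at 0.5 h, 14.7 ± 0.94 at 24 h and 12.2 ± 0.12 CPM per kb in untreated cells, below SLC25A6 in each. SLC25A5 stood at 2.68 ± 0.97 at 0.5 h, 1.98 ± 1.02 at 24 h and 2.76 ± 1.06 CPM per kb in untreated cells. SLC25A31 stood at 1.51 ± 0.02, 2.03 ± 0.39 and 2.00 ± 0.50 CPM per kb in the same groups, within the spread of SLC25A5 at 24 h and in untreated cells and below both SLC25A5 libraries at 0.5 h (SD, n = 2 each). Per kilobase of gene span the order was another one at 24 h. SLC25A4 stood at 8.80 CPM per kb of span at 0.5 h, 9.95 at 24 h and 8.31 in untreated cells, beside 9.02, 7.13 and 8.81 for SLC25A6 in the same groups. The Y row of SLC25A6, with 2824 counts beside 2777, is left out of these values and would raise SLC25A6 by either length. The place of SLC25A4 above SLC25A6 per span at 24 h thus rests on the X row alone. SLC25A5 stood at 1.37, 1.02 and 1.42 CPM per kb of span, and SLC25A31, whose gene is longer, at 0.063, 0.085 and 0.084.

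The promoters of the 4 ADP/ATP carriers are shown because these genes share a substrate and differed in level. Each line gives the 120 bases just upstream of the RefSeq start on GRCh38.p14, 5′ to 3′ on the gene's strand. They are SLC25A4 at chr4:185143146-185143265 (+), SLC25A6 at chrX:1392114-1392233 (-), SLC25A5 at chrX:119468324-119468443 (+) and SLC25A31 at chr4:127730280-127730399 (+). By the GENCODE gene coordinates used elsewhere here, these stretches are not wholly upstream. That of SLC25A6 lies inside the gene, whose GENCODE start is chrX:1392724. The others run past the GENCODE starts, chr4:185143241 for SLC25A4, chrX:119468400 for SLC25A5 and chr4:127730378 for SLC25A31. Capitals mark matches, on either strand, to the GC box GGGCGG, the CCAAT box CCAAT, the TATA box TATAAA and the E box CACGTG.
SLC25A4: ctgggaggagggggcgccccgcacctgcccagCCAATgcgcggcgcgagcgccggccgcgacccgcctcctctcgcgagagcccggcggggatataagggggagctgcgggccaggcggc
SLC25A6: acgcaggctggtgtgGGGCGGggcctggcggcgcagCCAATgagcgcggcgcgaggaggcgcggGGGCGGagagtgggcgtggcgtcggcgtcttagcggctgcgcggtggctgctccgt
SLC25A5: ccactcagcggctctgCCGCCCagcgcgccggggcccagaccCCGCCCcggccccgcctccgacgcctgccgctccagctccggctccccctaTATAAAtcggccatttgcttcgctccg
SLC25A31: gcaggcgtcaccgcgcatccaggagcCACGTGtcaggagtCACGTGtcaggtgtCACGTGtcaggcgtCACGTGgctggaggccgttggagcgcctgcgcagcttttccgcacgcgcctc
In these stretches SLC25A4 and SLC25A6 hold a CCAAT box, SLC25A6 and SLC25A5 hold 2 GC boxes each, SLC25A5 holds a TATA box, and SLC25A31 holds a run of 4 E boxes. Only exact matches were marked. A match describes letters and is not a measured site.

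Over the family, 40 of 48 members had a RefSeq promoter window, with 50 windows in all, and the 250 bases upstream of each start were searched on both strands. The GC box GGGCGG was in 66.0% of member windows and 42.7% of all 34961 windows, and the CCAAT box CCAAT in 42.0% and 32.0%. The E box CACGTG was in 16.0% of member windows and 6.35% of all windows, in 8 members that included SLC25A13, SLC25A26 and SLC25A31. The ETS core CCGGAAGT was in 8.0% and 3.43%, the cAMP response element TGACGTCA in 6.0% and 1.65%, and TATAAA in 8.0% and 10.7%. Of the 50 member windows these shares are 4, 3 and 4 windows. Those with TATAAA belong to 3 members, with SLC25A26 counted in overlapping windows. The palindromic core of the NRF1 motif was in 0 of the member windows and 1.03% of all windows. None of these matches overlapped a match of another motif. Member windows had a median GC content of 65.4%, against 58.4% for all windows, and GC-rich motifs move with GC content, whose part in the shares was not tested.

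SLC25A3 imports the phosphate that ATP synthase needs. It lies at chr12:98593591-98606379 and had 57.1 and 61.5 CPM at 0.5 h, 63.3 and 63.1 CPM at 24 h, and 54.5 and 59.7 CPM in untreated cells. Both 24 h libraries were above the others. Its log2 fold change at 24 h against untreated was 0.14 ± 0.10, with an interval of -0.09 to 0.38 (edgeR adjusted p = 0.771). The 4 ATP-Mg/phosphate carriers SLC25A23, SLC25A24, SLC25A25 and SLC25A41, most of which are regulated by calcium, ranged from 4.21 to 55.5 CPM at 0.5 h, 3.78 to 52.6 CPM at 24 h and 3.74 to 56.7 CPM in untreated cells. Over the 9 adenine nucleotide and phosphate carriers, all tested, 0 were called in any comparison, and the median log2 fold change was 0.00 at 0.5 h and 0.03 at 24 h against untreated. SLC25A41 and SLC25A23 are neighbours 2.3 kb apart on chromosome 19.

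The aspartate/glutamate carriers SLC25A12 (aralar) and SLC25A13 (citrin) serve the malate-aspartate shuttle, which brings cytosolic reducing equivalents into mitochondria. SLC25A13, at chr7:96120220-96322147, had 244 and 236 CPM at 0.5 h, 239 and 227 CPM at 24 h, and 276 and 234 CPM in untreated cells. The first untreated library was the highest and the groups overlapped. The gene alone gave between 14.1% and 16.9% of the family's counts per library, and its log2 fold change at 24 h against untreated was -0.13 ± 0.12 (edgeR adjusted p = 0.833).

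SLC25A12, at chr2:171784370-171999859, had 86.5 and 87.5 CPM at 0.5 h, 91.4 and 92.4 CPM at 24 h, and 83.2 and 91.1 CPM in untreated cells. The 24 h libraries were above all others by a small margin, with a log2 fold change of 0.08 ± 0.10 against untreated (edgeR adjusted p = 0.894). SLC25A22, a glutamate carrier at chr11:790475-798333, had 23.1 and 22.7 CPM at 0.5 h, 23.4 and 21.4 CPM at 24 h, and 28.8 and 25.4 CPM in untreated cells. It lay below both untreated libraries in all 4 treated ones. The log2 fold change was -0.24 ± 0.14 at 0.5 h (edgeR adjusted p = 0.9996) and -0.27 ± 0.15 at 24 h against untreated (edgeR adjusted p = 0.697). Over the 8 di- and tricarboxylate and aspartate/glutamate carriers, all tested, 0 were called, and the medians were -0.05 at 0.5 h and -0.15 at 24 h against untreated. In this group the oxoglutarate carrier SLC25A11 had 10.4 and 25.7 CPM at 0.5 h, 12.3 and 11.2 CPM at 24 h, and 12.2 and 14.3 CPM in untreated cells. Its second 0.5 h library stood 2.46-fold above the first, and the other 5 libraries lay between 10.4 and 14.3 CPM. SLC25A11 shares 9.14% of its exon length with RNF167, a gene on the opposite strand with 3360 counts.

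Among amino acid, carnitine and methyl donor carriers, SLC25A29 gave the smallest adjusted p of the family. It carries basic amino acids such as arginine and lysine into mitochondria and lies at chr14:100291111-100306547, 16.8 kb from SLC25A47. It had 45.7 and 47.7 CPM at 0.5 h, 38.4 and 33.7 CPM at 24 h, and 52.1 and 42.7 CPM in untreated cells. Both 24 h libraries were below all 4 others, and the 0.5 h libraries lay between the untreated ones. Its log2 fold change was -0.39 ± 0.14 at 24 h against untreated, with an interval of -0.69 to -0.08 (edgeR adjusted p = 0.574), and -0.37 ± 0.13 at 24 h against 0.5 h (edgeR adjusted p = 0.754). SLC25A29 shares 1.33% of its exon length with AL157871.6, a gene on the same strand with 2844 counts, and reads there cannot be told apart.

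SLC25A44, which imports branched-chain amino acids, lies at chr1:156193932-156212796. It had 68.7 and 64.0 CPM at 0.5 h, 53.4 and 57.3 CPM at 24 h, and 59.7 and 55.7 CPM in untreated cells. The 0.5 h libraries were the highest of the 6, and the 24 h libraries overlapped the untreated ones. The log2 fold change was 0.20 ± 0.10 at 0.5 h against untreated (edgeR adjusted p = 0.9996) and -0.26 ± 0.10 at 24 h against 0.5 h (edgeR adjusted p = 0.765). SLC25A26, which brings in the methyl donor S-adenosylmethionine, had 113 and 97.4 CPM at 0.5 h, 103 and 93.1 CPM at 24 h, and 106 and 96.9 CPM in untreated cells, with overlapping groups. SLC25A26 shares 15.5% of its exon length with LRIG1, a gene on the opposite strand with 2157 counts. Over this list, 6 of 7 genes were tested and 0 called, with medians of 0.10 at 0.5 h and -0.05 at 24 h against untreated and -0.18 at 24 h against 0.5 h. The seventh, the ornithine carrier SLC25A2, had 0 counts in every library, where a count of 0 allows up to 3 counts.

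**Figure D4:**
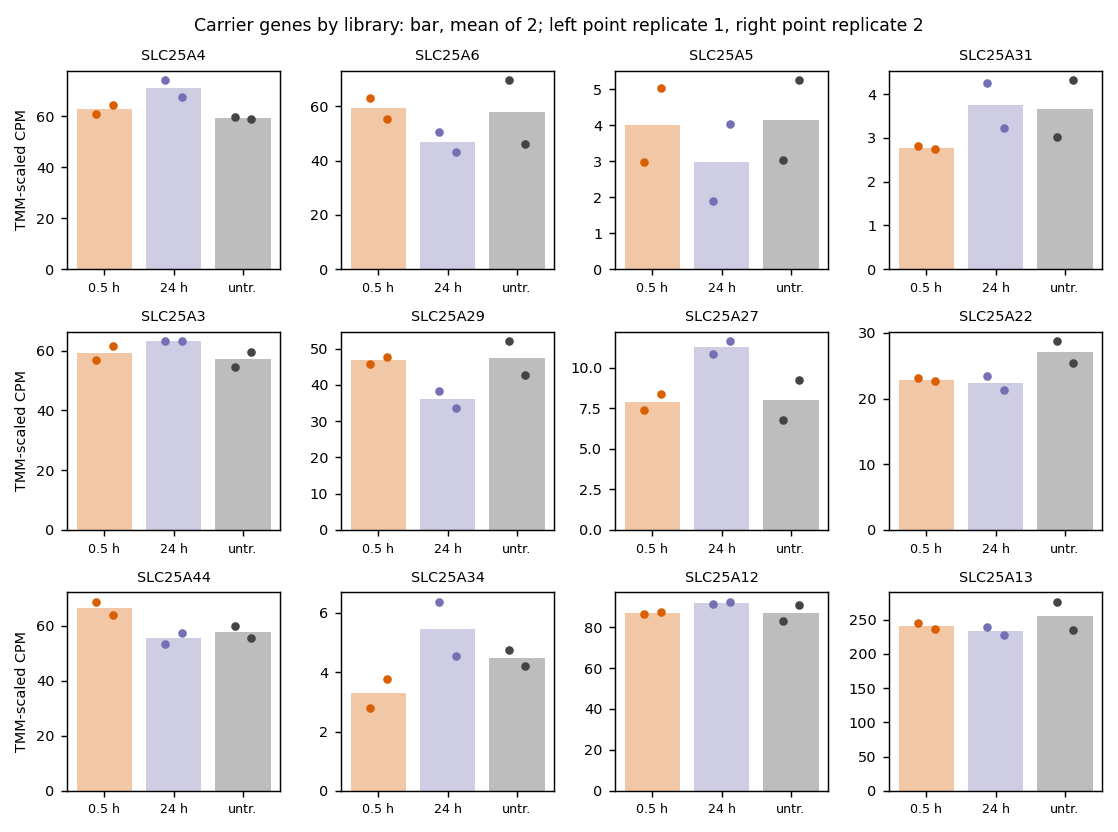
TMM-scaled CPM of 12 carriers, with bars for the mean of 2 libraries and points for each library (left point, replicate 1), for 0.5 h of MPP+ (orange), 24 h of MPP+ (violet) and untreated cells (untr., grey). Each panel has its own axis from 0, and SLC25A6 is drawn from its X row alone. SLC25A29 is lowest and SLC25A4 highest in both 24 h libraries, and SLC25A6 and SLC25A5 vary as much within groups as between them.

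The carriers of cofactors, glutathione, metals and nucleotides formed the largest list, with 13 genes, of which 10 were tested and 0 called. Its medians were -0.02 at 0.5 h and -0.05 at 24 h against untreated. The mitoferrins bring iron in for haem and iron-sulphur clusters. SLC25A37 (mitoferrin-1) had 34.4 and 32.4 CPM at 0.5 h, 32.0 and 35 CPM at 24 h, and 32.8 and 38.5 CPM in untreated cells. SLC25A28 (mitoferrin-2) had 14.8 and 16.4 CPM at 0.5 h, 11.5 and 17.5 CPM at 24 h, and 11.8 and 16.8 CPM in untreated cells. Groups of both mitoferrins overlapped.

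SLC25A17, a peroxisomal carrier of coenzyme A and related cofactors, had 27.0 and 31.5 CPM at 0.5 h, 28.6 and 25.2 CPM at 24 h, and 21.2 and 25.8 CPM in untreated cells. The 0.5 h libraries were above the untreated ones, with a log2 fold change of 0.31 ± 0.16 (edgeR adjusted p = 0.9996). SLC25A42, the mitochondrial coenzyme A carrier, had 42.4 and 43.3 CPM at 0.5 h, 51.1 and 47.1 CPM at 24 h, and 50.2 and 47.5 CPM in untreated cells. Its 0.5 h libraries were the lowest of the 6, with a log2 fold change of -0.19 ± 0.11 against untreated (edgeR adjusted p = 0.9996). The log2 fold change of SLC25A42 at 24 h against 0.5 h was 0.20 ± 0.11 (edgeR adjusted p = 0.781). SLC25A36, a pyrimidine nucleotide carrier, was the fourth highest member by CPM when SLC25A6 is taken from its X row alone. SLC25A36 had 72.7 and 69.2 CPM at 0.5 h, 67.3 and 64.6 CPM at 24 h, and 75.6 and 68.4 CPM in untreated cells, with both 24 h libraries lowest.

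The NAD carriers and the folate carrier were scarcely counted. SLC25A51, the mitochondrial NAD carrier, had 0 counts in every library, and its close relative SLC25A52 had 0 and 0 at 0.5 h, 3 and 3 at 24 h, and 2 and 2 in untreated cells. SLC25A32, the folate and FAD carrier, had 4 counts in all. Whether these genes were silent was not tested. SLC25A32 shares 69.7% of its merged exon length with AC012213.5, a protein-coding gene annotated on the same strand, which held 642 and 454 counts at 0.5 h, 517 and 345 at 24 h, and 388 and 442 in untreated cells. SLC25A51 shares 3.59% with AL138752.2, also on the same strand, which held 639 and 568 counts at 0.5 h, 540 and 411 at 24 h, and 362 and 567 in untreated cells. Over all overlapping genes SLC25A51 shares 6.36% of its exon length, and SLC25A52 shares 0.0%. How the counting treated reads that fall in more than 1 gene is not given in the sources used here. TUBA1B, a widely used tubulin gene, was also at 0 in every library, and its overlaps were not examined. Any part of overlap in these low counts was not tested.

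Of the uncoupling-protein-like carriers, SLC25A27 (UCP4), which is found mainly in the brain, lies at chr6:46652915-46678193. It had 7.38 and 8.37 CPM at 0.5 h, 10.9 and 11.7 CPM at 24 h, and 6.76 and 9.24 CPM in untreated cells. Both 24 h libraries were above all 4 others. Its log2 fold change was 0.48 ± 0.23 at 24 h against untreated, with an interval of -0.03 to 0.99 (edgeR adjusted p = 0.636), and 0.52 ± 0.22 at 24 h against 0.5 h (edgeR adjusted p = 0.768). SLC25A14 (UCP5) had between 13 and 17.1 CPM over the 6 libraries, and SLC25A30 had 21 counts in all and was not tested. Over the list 0 genes were called.

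The 8 carriers of other or unassigned substrate were all tested, with 0 called and medians of 0.02 at 0.5 h and 0.14 at 24 h against untreated. SLC25A34, at chr1:15736405-15741396, had 2.81 and 3.78 CPM at 0.5 h, 6.38 and 4.53 CPM at 24 h, and 4.75 and 4.21 CPM in untreated cells. The 0.5 h libraries were the lowest, and the log2 fold change was -0.45 ± 0.29 at 0.5 h against untreated (edgeR adjusted p = 0.9996) and 0.76 ± 0.29 at 24 h against 0.5 h (edgeR adjusted p = 0.764). SLC25A46, an outer-membrane member with a part in mitochondrial shape, had 34.3 and 41.0 CPM at 0.5 h, 30.9 and 38.7 CPM at 24 h, and 30.1 and 33.4 CPM in untreated cells, with both 0.5 h libraries above the untreated ones. Its log2 fold change was 0.24 ± 0.15 at 0.5 h (edgeR adjusted p = 0.9996). SLC25A35 had 24.3 and 31.6 CPM at 0.5 h, 26.5 and 35.3 CPM at 24 h, and 17.1 and 32.4 CPM in untreated cells, so its untreated libraries differed 1.89-fold. SLC25A35 shares 33.2% of its exon length with RANGRF on the opposite strand, which held 0 counts beside 1391 for SLC25A35. Without a stated strand setting, reads of the 2 genes cannot be told apart.

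Related genes outside the SLC25A symbols gave 0 calls as well. Of 5 carrier-family genes without such a symbol (UCP1, UCP2, UCP3, MTCH1 and MTCH2), all were tested, and the median was -0.02 at 0.5 h and 0.00 at 24 h against untreated. Of 28 other mitochondrial membrane transporters, 25 were tested, with medians of 0.01 at 0.5 h and -0.01 at 24 h against untreated and -0.08 at 24 h against 0.5 h. In that list VDAC3, an outer-membrane channel, had 48.6 and 46.8 CPM at 0.5 h, 37.7 and 34.5 CPM at 24 h, and 44.2 and 40.57 CPM in untreated cells, with a log2 fold change of -0.40 ± 0.12 at 24 h against 0.5 h (edgeR adjusted p = 0.754). CPT1A, which commits fatty acids to mitochondrial oxidation, had 61.6 and 61.0 CPM at 0.5 h, 79.7 and 66.4 CPM at 24 h, and 64.9 and 55.1 CPM in untreated cells, with a log2 fold change of 0.29 ± 0.12 at 24 h against untreated (edgeR adjusted p = 0.605). Of 10 genes of the route that inserts carriers into the inner membrane, 9 were tested, with medians of 0.12 at 0.5 h and 0.01 at 24 h against untreated and -0.11 at 24 h against 0.5 h. In the last of these, 6 of the 9 had both 24 h libraries below both 0.5 h ones, beside 19.0% of all genes, and 0 were called. TIMM10, a chaperone of that route, had 23.3 and 20.9 CPM at 0.5 h, 18.4 and 16.7 CPM at 24 h, and 16.3 and 18.5 CPM in untreated cells, with a log2 fold change of 0.34 ± 0.16 at 0.5 h against untreated (edgeR adjusted p = 0.9996).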

How the data were processed

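The submitters' processing notes name the build hg38 and the tools featureCounts 2.0.1, Bowtie2 2.4.2, DESeq2 2.11.40.6, cutadapt 1.16.5, deepTools 3.5.1.0.0 and SAMtools 1.13. The deposited files hold unnormalized read counts per gene, 1 file for each library. From the authors' deposited differential tables, which hold an adjusted p-value per gene, only membership was read. The sources used here do not give the strand, feature type and multimapping settings or the annotation release. The counts do not separate molecules from PCR copies, so floors cover counting error only, and intervals come from the spread between libraries.

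Symbols came from a gene name table for 42061 identifiers and from GENCODE 29 for 16489, and 8501 had no symbol. Exon lengths, gene spans and gene coordinates came from GENCODE 29 on hg38, and promoter windows from RefSeq GRCh38.p14. The filterByExpr filter by group left 23133 genes, whose counts were scaled by TMM and fitted on all 6 libraries with edgeR 4.0.16 in R 4.3.3 (common biological coefficient of variation 0.113, prior degrees of freedom 6.34, residual degrees of freedom 3). Tests were two-sided. A standard error is the log2 fold change divided by the root of the F statistic. The script was tested on simulated data. DESeq2 1.42.0 was an alternative.

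Values of each library are given for the 6 members with the smallest p in each comparison, the 5 highest by CPM, and the ADP/ATP, phosphate, aspartate/glutamate, iron and NAD carriers. SLC25A11, SLC25A35 and SLC25A32 were added after their values were seen. SLC25A6 enters levels, ranks and family sums by its X row, except where both rows were summed. A tested member is counted but not reported by name here. In other gene lists the named genes are among the 3 with the smallest p in a comparison. The members and lists were chosen with earlier results of these data known.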

Additional observations from a re-analysis of the deposited data

How the results depend on the processing

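The number of members called was 0 in 36 of 36 alternative fits over the 3 comparisons: other scalings, other filters on low counts, DESeq2, fits on 2 groups, scaling without mtDNA genes, a replicate block and leaving out each library. The median log2 fold change of the members at 24 h against untreated ranged from -0.091 to -0.024 when 1 library was left out, with -0.091 without the second 24 h library, against -0.01 with all 6. It was 0.00 under upper-quartile scaling. Of 251 recomputed log2 fold changes of named members, 1 changed sign: SLC25A6 at 24 h against untreated, which ranged from -0.58 to 0.024 when 1 library was left out. In 13 of the 21 named log2 fold changes, leaving out a library moved the value by over 1.5 times. At 24 h against untreated SLC25A29 ranged from -0.54 to -0.24, SLC25A27 from 0.28 to 0.72 and SLC25A5 from -1.15 to -0.06, and 8 of 9 moved that far, SLC25A4 being the exception. At 0.5 h SLC25A34 ranged from -0.67 to -0.24, SLC25A17 from 0.18 to 0.46, SLC25A46 from 0.11 to 0.37 and SLC25A22 from -0.34 to -0.15. Against 0.5 h, SLC25A34 at 24 h was 0.47 without 24 h replicate 1, the single value of 6 there that moved so far. Summing both SLC25A6 rows, an alternative chosen after seeing the data, gave -0.40 at 24 h against untreated (edgeR adjusted p = 0.651). Measured per gene span, the median level in untreated cells was 1.05 CPM per kb, against 6.18 per exon kb. The ratio of summed CPM stayed between 0.947 and 1.03 in 21 recomputations.

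Counts over all genes moved by more than 1.5 times under several alternatives. Without a filter on low counts, 66, 245 and 73 genes were called in the 0.5 h, 24 h and 24 h against 0.5 h comparisons, where the fits above gave 17, 16 and 0. With the replicate block they were 57, 685 and 412, and the smallest adjusted p of a member was 0.633, 0.0701 and 0.0999, the second and the third for SLC25A29. Differences between replicates 1 and 2 correlated across genes at 0.293 to 0.328 between groups, but the labels do not say what a replicate number shares, and with 2 numbers it stays a name. DESeq2 called 31 genes at 24 h against untreated. Leaving out a library gave as few as 9 genes at 0.5 h (without its first library) and, at 24 h, 8 (without the first untreated library) and 10 (without the first 24 h library). The cause was not tested. With 2 libraries a group, changes under 1.5-fold were within the 95% interval of many members, and outliers within a group could not be tested.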
